A study of Triticum dicoccoides with 12 samples.

Results

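The transcripts described here were already measurable in roots of well-watered wild emmer wheat (Triticum turgidum subsp. dicoccoides, the wild tetraploid relative of durum wheat) and rose after water was withheld, in both genotypes studied. They were chosen from the values themselves. A probe set was a member if its mean over 3 arrays was at or above 0 in the watered plants of both genotypes, and if stressed minus well-watered was at least 1.0 in each genotype. Of 61115 probe sets that are not array controls, 17724 met the level condition, 384 met the rise condition and 200 met both. The other 184 that rose started from a well-watered mean under 0 in at least 1 genotype. For comparison of size, 537 probe sets with both well-watered means at or above 0 fell by at least 1.0 in both genotypes.

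Total root RNA was measured on Affymetrix wheat arrays in a single colour. There were 4 groups of 3 arrays, and the labels call the 3 biological replicates. The groups were Y12-3 and A24-39, each either well-watered or left without water for 7 days. The labels give an age of 4 weeks and a start of the stress at the stage of 4 leaves, but not how many plants went into an array. Y12-3 is known for drought resistance and A24-39 for drought susceptibility, and the series sets their root responses side by side.

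A drying soil reaches the plant first through its roots, where abscisic acid rises and activates genes for protective proteins such as dehydrins, for compatible solutes, for detoxifying enzymes and for lipid and cell wall changes. Some stress genes are silent until the stress comes. Others, like those described here by their mean levels, are already transcribed in watered roots and are raised further. Which of these processes the 200 probe sets belong to cannot be read from the annotation used here. It gave a gene symbol to 18 of them, for 15 genes, and each of the 15 symbols is a placeholder starting with LOC, without a description. None of their gene identifiers or accessions (0 of 18) matched RefSeq's genes for the assembly WEW_v2.1, and no probe or gene sequence was in the files. From 8 gene lists, of stress genes and of cell growth, looked up by symbol, 6 probe sets were found on the array and 0 of these were members. The lists hold no symbol starting with LOC, so no member could match, and the 0 says nothing about what the members do. Members are therefore named by probe set, with the symbol where there is one.

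Values are deposited log-like units. The base of the logarithm is not given in the sources used here. If no scaling followed the logarithm, 1 unit is a ratio of 2 for base 2 and of 2.72 for a natural logarithm, and whether any scaling followed is not known. Probe sets can be compared by their differences between samples. Levels of different probe sets also depend on how well their probes bind, so a rank among probe sets is one of brightness and not of transcript number. In whole roots, more RNA per cell and more cells of a type cannot be told apart.

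The level condition keeps the mean levels of the members above background in watered roots. The array carries 23 controls with no wheat target, and the highest group mean of any of them was -0.10. All 200 members exceeded it in both watered groups, as the condition requires, and for 180 each of the 6 well-watered arrays did. Shoot markers gave little information on the tissue. Of 11 shoot markers looked up, FBP (fructose bisphosphatase) and petC (a chloroplast electron transport protein) were found, on 4 probe sets, and their highest group mean, -0.11, did not reach that of the non-target controls. No green sample was at hand to show that these probe sets can read a signal.

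In watered roots the median member stood at 0.74 in Y12-3 and 0.77 in A24-39, close to the medians of 0.73 and 0.71 over the 17724 probe sets that met the level condition. Under stress it stood at 2.56 in Y12-3 and 2.57 in A24-39, while the medians of those 17724 were 0.73 and 0.62. This difference was used to choose the members and is given as a description. Among the 100 brightest probe sets, 0 were members in either watered group, against 16 in stressed Y12-3 and 13 in stressed A24-39. The brightest of all probe sets in stressed A24-39, Ta.28695.2.S1_s_at, was a member, and it had rank 3 in stressed Y12-3. It had ranked 4457 and 6952 in watered A24-39 and Y12-3.

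**Figure D1:**
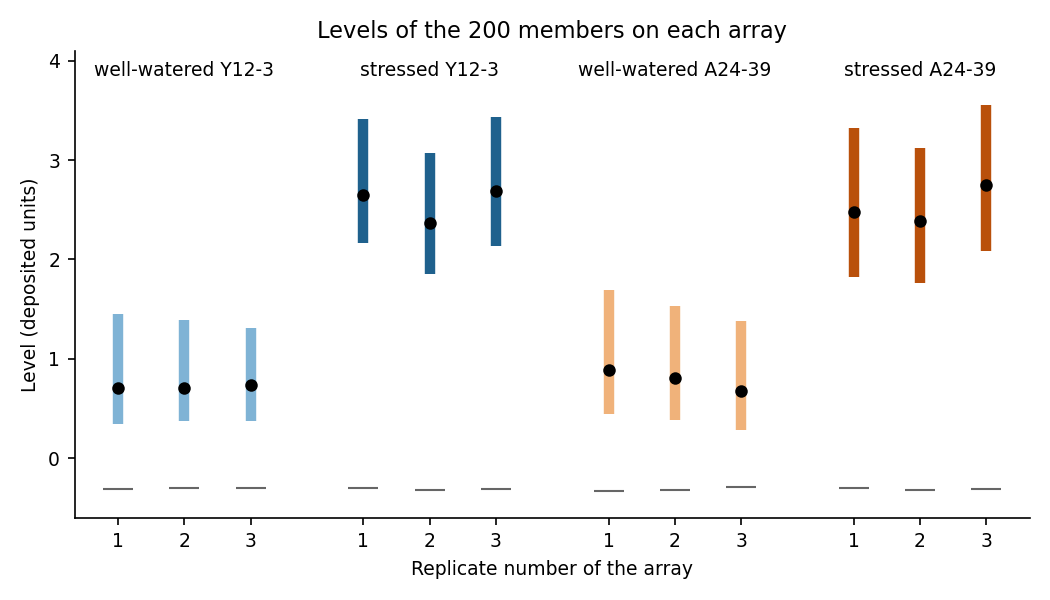
Level of the 200 members on each of the 12 arrays, in deposited units, with replicate numbers on the horizontal axis. Bars span the lower to the upper quartile of the members, black points are their medians and grey dashes are the medians of all 61115 probe sets. Member medians lie between 0.674 and 0.885 on the 6 well-watered arrays and between 2.36 and 2.75 on the 6 stressed arrays, while the median of all probe sets stays between -0.33 and -0.29.

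On single arrays the median over members was 0.708, 0.707 and 0.738 for watered Y12-3, against 0.885, 0.809 and 0.674 for watered A24-39. It was 2.65, 2.36 and 2.69 in stressed Y12-3 and 2.48, 2.39 and 2.75 in stressed A24-39. The lowest stressed array was thus far above the highest well-watered one. For each of the 200 members, all 3 stressed arrays were above all 3 well-watered arrays in both genotypes, which holds for 8.69% of all probe sets. The rule asks for a rise of this kind, so the count describes the members and is no test of them.

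The Y12-3 responses had a median of 1.57 and a range of 1.01 to 4.19. Those of A24-39 had a median of 1.43 and a range of 1.004 to 4.62. The smaller of the 2 responses was under 1.5 for 131 members, at least 2 for 36 and at least 3 for 13. Across members, which share their arrays and in part their target sequences, the responses of the genotypes correlated at Pearson r = 0.878 and Spearman rho = 0.702 (200 probe sets). The rule cuts off both axes at 1.0, which shapes these values. Among the members, the mean watered level and the mean response had a Spearman rho of -0.149. The rule set a limit on both, and the response subtracts the watered level, so this only describes the members. The median response was 1.52 for the 68 members whose watered level lay under 0.5 and 1.38 for the 22 at or above 2.

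**Figure D2:**
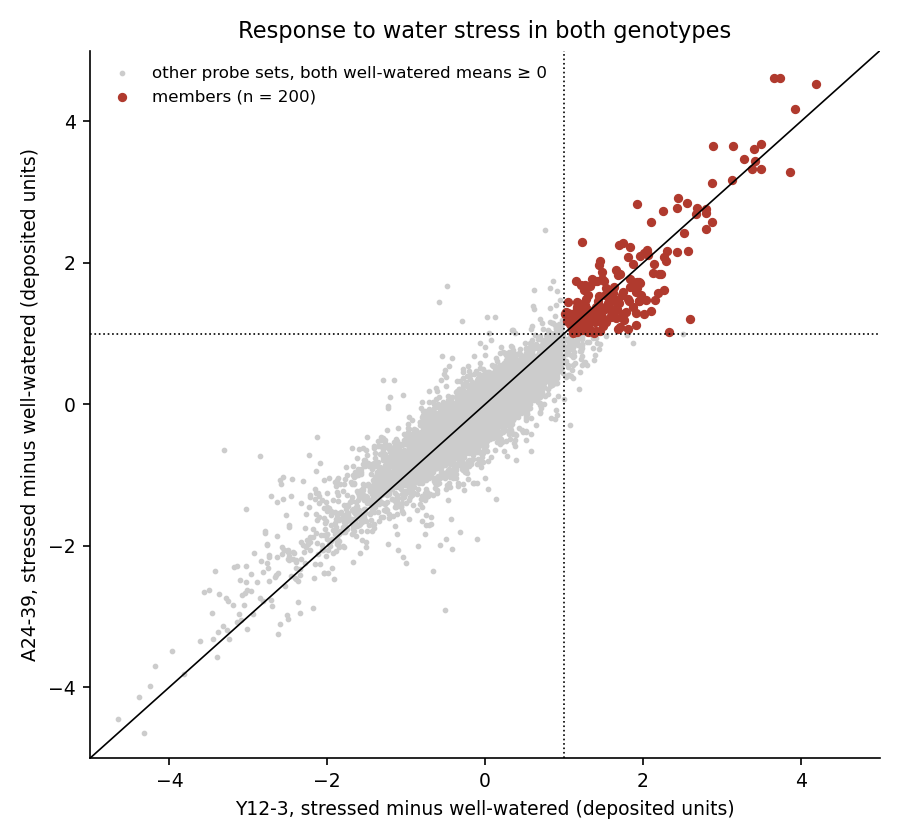
Response to water stress (stressed minus well-watered mean, deposited units) in Y12-3 on the horizontal and A24-39 on the vertical axis. Red points are the 200 members, grey points the other probe sets with both well-watered means at or above 0. Dotted lines mark the rise of 1.0 that the rule asks for and the solid line marks equal responses. The members follow the line of equal responses up to about 4 units, and only 3 of them differ by at least 1 unit between genotypes.

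Whether the rise is seen in arrays that took no part in the choice was examined by applying the rule to 2 arrays per group and measuring the response on the remaining ones. With the first arrays left out, 212 probe sets were chosen, and all 212 were higher under stress in both genotypes on the left-out arrays. With the second left out, this was so for 227 of 227, and with the third for 160 of 161. The responses were smaller on the left-out first and second arrays than on those used, except for the first arrays of Y12-3. With the second arrays left out, the median was 1.61 on the arrays used and 1.27 on the left-out ones in Y12-3, and 1.45 and 1.18 in A24-39. With the third arrays left out it was 1.59 and 1.82 in Y12-3 and 1.41 and 1.87 in A24-39. A rise of at least 1.0 in both genotypes was measured again for 63.2%, 56.4% and 92.5% of the probe sets chosen without the first, the second and the third arrays. The same shares over all probe sets were not taken on the left-out arrays, so these counts have no background beside them.

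The member with the highest mean response was Ta.18239.1.S1_at, for which no symbol was given. Its 3 Y12-3 arrays read 0.27, 0.14 and 0.11 when watered and 4.46, 4.13 and 4.51 when stressed. In A24-39 it read 0.09, 0.09 and 0.03 in well-watered and 4.55, 4.37 and 4.87 in stressed roots. The rise was 4.19 in Y12-3 and 4.53 in A24-39. If no scaling followed the logarithm, the Y12-3 rise is a ratio of 18.3 on the log2 or 66.2 on the natural reading.

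Both probe sets of the cluster Ta.2704, annotated to LOC543293, came next. Ta.2704.1.S1_x_at read 0.37, 0.38 and 0.79 on watered and 4.49, 3.87 and 4.37 on stressed Y12-3 arrays. In A24-39 it read 0.31, 0.12 and 0.51 in well-watered and 5.004, 4.65 and 5.15 in stressed roots. Its partner Ta.2704.1.S1_at rose by 3.66 in Y12-3 and 4.61 in A24-39, against 3.73 and 4.62 for the first. A further probe set of LOC543293, TaAffx.46097.2.S1_at, rose by 3.91 and 3.35 from well-watered means of -0.62 and -0.63. It failed the level condition and is no member.

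Ta.28695.2.S1_s_at, the brightest member under stress, stood at 0.98 ± 0.40 before and 4.91 ± 0.16 under stress in Y12-3, against 1.42 ± 0.42 and 5.603 ± 0.172 for A24-39 (SD, n = 3). Ta.13938.1.S1_at read 0.98, 0.97 and 0.43 on watered and 4.52, 4.65 and 4.798 on stressed arrays of Y12-3. In A24-39 it read 1.98, 2.51 and 1.42 and then 5.03, 5.26 and 5.48, so that it was brighter in A24-39 on every array before stress as well as after it. LOC543476 (Ta.23797.1.S1_x_at) rose by 3.49 and 3.68, from well-watered means of 0.016 and 0.013. The remaining members among the 10 highest were LOC778392 (Ta.351.2.S1_x_at), Ta.5757.1.S1_at, Ta.28695.3.S1_at and TaAffx.10989.1.S1_at, with rises between 3.14 and 3.65 in either genotype.

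**Figure D3:**
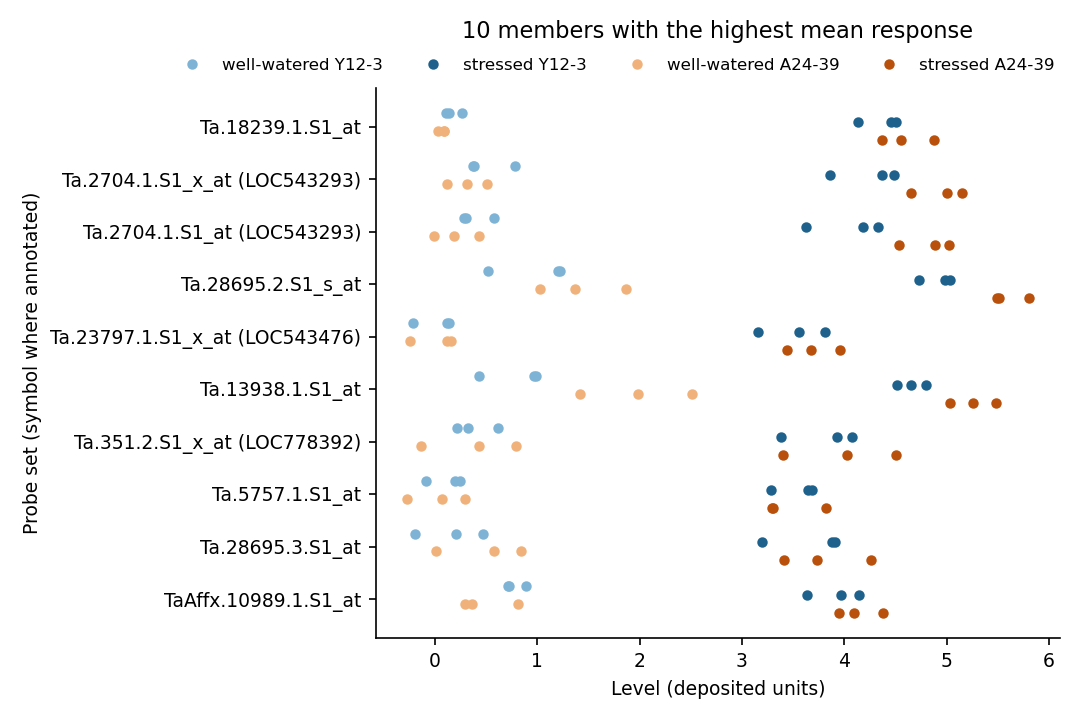
Values on every array, in deposited units, of the 10 members with the highest mean response. Each point is 1 array, with 3 per group, and colours mark the 4 groups. For all 10 probe sets the stressed arrays (3.16 and above) are clear of the well-watered arrays (2.51 and below) in both genotypes.

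The other members with a symbol covered a wide range of starting levels. LOC542781 (Ta.27725.1.S1_at) was among the brightest members before stress, with 3.52, 3.37 and 2.62 on watered Y12-3 arrays and 2.60, 2.93 and 1.93 on those of A24-39. Stress brought it to 4.44, 4.33 and 4.42 in Y12-3 and to 4.75, 4.75 and 4.83 in A24-39, levels with SDs of only 0.06 and 0.05. Its rise was thus 1.23 in Y12-3 and 2.29 in A24-39.

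LOC543255 (Ta.759.1.S1_at) rose by 2.88 and 3.65 from well-watered means of 1.15 and 0.77. LOC100049041 (Ta.30113.1.S1_at) rose by 2.02 and 2.15, and LOC543245 (Ta.24728.1.S1_at) by 1.46 and 2.03. LOC543353 (Ta.2775.1.S1_at) had tight replicates, at 1.89 ± 0.03 and 3.50 ± 0.18 in Y12-3 and 1.92 ± 0.12 and 3.49 ± 0.10 in A24-39 (SD, n = 3). LOC100125738 (Ta.13785.1.S1_at) was far less even, with 2.45, 2.97 and 4.11 on the well-watered A24-39 arrays, the largest SD of any member in any group (0.85). Its stressed A24-39 arrays read 4.68, 4.37 and 4.95, so the groups were separated by only 0.26.

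Not every probe set of a symbol followed. For LOC778392, Ta.351.1.S1_at rose by 2.05 and 2.15 and Ta.351.2.S1_x_at by 3.41 and 3.62, whereas Ta.351.3.S1_at differed by -0.018 and 0.093. For LOC542992, Ta.1457.1.S1_s_at rose by 1.5002 and 1.74, whereas Ta.1457.1.S2_at differed by -0.075 and 0.00099. For LOC542838, the member Ta.10084.1.S1_at rose by 1.21 and 1.16, against 0.45 and 0.034 on TaAffx.130064.3.S1_s_at.

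The 200 members are not 200 separate genes. Probe set identifiers carry a cluster number that groups related transcript sequences, and the members came from 152 clusters. Of these, 118 had 1 member, 25 had 2 and 9 had 3 or more, so that 82 members shared a cluster with another. By their identifiers, 49 members (24.5%) end in _x_at, which marks sets with some probes that match other sequences, against 19.4% of all probe sets that met the level condition. The mean response of 2 members differed by a median of 0.18 within a cluster (68 pairs) and of 0.41 between clusters. The widest gap within a cluster was 1.41, between the members of Ta.351. Probe sets of a cluster can share sequence, and so are not independent readings.

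All 5 probe sets of Ta.1602 were members, with rises of 1.04 to 1.57 in Y12-3 and of 1.17 to 1.499 in A24-39. Ta.27333, Ta.8571 and Ta.951 each had 4 members among 5 probe sets, and the remaining one of each cluster was also called higher in both genotypes by limma, at smaller rises or lower levels. In Ta.28695 the picture was mixed. Its 3 members rose by 3.33 to 4.18, whereas Ta.28695.5.A1_at, which also met the level condition, differed by -0.79 in Y12-3 and -0.22 in A24-39.

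In all, 57 of the 152 clusters held further probe sets that were not members, 204 in number. Limma called 73 of these higher in both genotypes (35.8%; adjusted p under 0.05 in each), against 4.32% of all probe sets, and 2 lower in both. Among the 59 of them that met the level condition the count was 22 (37.3%, against 8.97% of all such probe sets), and their median difference was 0.091 in Y12-3 and 0.10 in A24-39. These probe sets had failed the rule, so large rises from a measurable level are missing among them by construction, and some share sequence with a member.

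**Figure D4:**
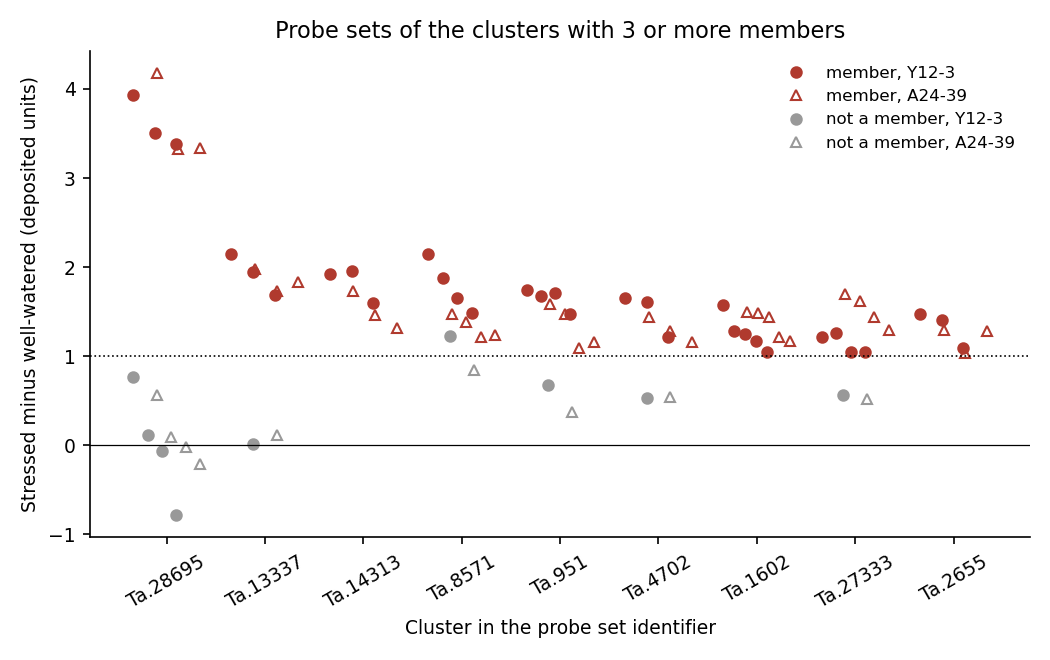
Response to water stress (deposited units) of every probe set in the 9 clusters with 3 or more members. Filled circles are Y12-3 and open triangles A24-39, with members in red and other probe sets of the same cluster in grey. The dotted line marks a rise of 1.0. In Ta.1602 the 5 members lie between 1.04 and 1.57, and the grey points run from -0.79 to 1.22.

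The genotypes were compared through contrasts that the rule did not set thresholds on. They are built from the same group means, since the interaction is the difference of responses that each had to reach 1.0 and the watered contrast uses means that had to reach 0. The counts of calls among members are therefore given beside the background as descriptions. The response was larger in Y12-3 for 117 members and larger in A24-39 for 83. It differed by at most 0.5 for 173 and by at least 1 for 3. The median of the difference, Y12-3 minus A24-39, was 0.055, against 0.032 over the probe sets that met the level condition and -0.017 over all. Its sign rested on single arrays, since it was -0.011 without the first stressed Y12-3 array and -0.0045 without the second stressed A24-39 array. Tested directly as an interaction over all probe sets, limma called 0 of 200 members (adjusted p under 0.05), where it called 0.0851% of all probe sets and 0.0564% of those that met the level condition. At an unadjusted p under 0.05 there were 24 members (12%), against 8.34% of all and 10.8% of those that met the level condition. Both shares describe a test with 3 arrays per group, and a difference below its reach is not shown to be absent.

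The 3 largest differences were those of Ta.787.1.S1_x_at (1.40 ± 0.50), Ta.18122.1.S1_at (1.31 ± 0.30) and LOC542781 on Ta.27725.1.S1_at (-1.06 ± 0.36; SE of limma, adjusted p = 0.485, 0.206 and 0.455). Same-numbered arrays of the genotypes tended to deviate together within each watering regime, though the labels do not state a pairing. The first stressed Y12-3 array was no clear case, at 0.170 with the first and 0.175 with the third stressed A24-39 array. Unless a block is named, the counts of calls and the SEs come from a fit without one, which does not use the pairing. With the replicate number as a block within each regime, limma called 5 members, 2 higher and 3 lower in Y12-3, against 0.25% of all probe sets, 0.147% higher and 0.103% lower. They are named here after their values were seen. Y12-3 had the larger response on Ta.18122.1.S1_at (1.31 ± 0.12) and Ta.16038.1.S1_at (0.48 ± 0.061; SE, limma adjusted p = 0.0264 and 0.0436). A24-39 had the larger response on Ta.27725.1.S1_at (-1.06 ± 0.12) and on both LOC543293 members, Ta.2704.1.S1_at (-0.95 ± 0.10) and Ta.2704.1.S1_x_at (-0.89 ± 0.096; SE, limma adjusted p = 0.0332, 0.0334 and 0.0324). The LOC543293 probe set that is no member, TaAffx.46097.2.S1_at, differed the other way in the fit without a block (0.56 ± 0.38, SE). In the fit of the deposited values without a block none of the 5 passed, with adjusted p between 0.206 and 0.662. After the spike-in shift, also without a block, limma called Ta.18122.1.S1_at (1.41 ± 0.24; SE, adjusted p = 0.0293).

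In watered roots limma called 7 members as different between the genotypes, which is 3.5% of 200, against 5.29% of all probe sets and 7.42% of those that met the level condition. All 7 were lower in Y12-3 (2.49% of all probe sets were lower and 2.8% higher). After quantile normalization the split was 1 higher and 8 lower, where 5.65% of all probe sets were called. After a shift by spike-in controls it was 1 and 9, against 3.09% of all. With the paired block it was 8 and 29, or 37 in all, against 6.47% of all probe sets (3.15% higher and 3.32% lower). Without the first well-watered A24-39 array the count was 3, against 3.13% of all.

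Ta.9635.1.A1_at showed the clearest difference. Watered Y12-3 arrays read 1.17, 1.02 and 1.10 and watered A24-39 arrays 2.22, 2.26 and 2.13, with no overlap. The Y12-3 minus A24-39 value was -1.10 ± 0.12 (SE, limma adjusted p = 0.00045), a call that held under each of 21 alternatives. Some of these, such as leaving out a stressed array, leave the watered difference as it is and change only its error. The other member of cluster Ta.9635, Ta.9635.2.S1_a_at, was not called and lay the other way in watered roots (0.20 ± 0.17, SE). Ta.14301.1.S1_at, at 1.41 ± 0.25 in Y12-3 and 2.29 ± 0.18 in A24-39 (SD, n = 3), also passed under each of the 21. Its cluster partner Ta.14301.1.S1_s_at differed by -0.45 and was not called (limma adjusted p = 0.315). The paired block did call it (limma adjusted p = 0.00902). The calls of Ta.787.1.S1_x_at (-1.41), Ta.13938.1.S1_at (-1.18) and Ta.8571.2.S1_x_at (-0.68) were lost under 13, 3 and 11 of the 21 alternatives. The other calls were those of Ta.1577.1.S1_at (-0.50) and, at the smallest size, Ta.30253.1.A1_at (-0.34).

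Under stress limma called 20 members as different (10% of 200), against 8.47% of all probe sets and 12% of those that met the level condition. Of the 20, 11 were higher and 9 lower in Y12-3, against 5.08% and 3.4% of all. The split moved to 14 and 2 after quantile normalization, where 7.83% of all probe sets were called. After the shift by spike-in controls it was 22 and 8, against 9.12% of all. With the paired block it was 19 and 28. That fit called 47 members and 8.74% of all probe sets (5.3% higher and 3.44% lower). The count was 10 without the first and 9 without the third stressed Y12-3 array, against 5.57% and 5.07% of all. It was 6 without the first and 10 without the second stressed A24-39 array, against 4.94% and 4.89%.

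Ta.18122.1.S1_at had the largest excess in Y12-3. Its stressed arrays read 3.26, 2.64 and 3.47 in Y12-3 and 1.48, 1.21 and 1.86 in A24-39, a difference of 1.61 ± 0.21 (SE; limma adjusted p = 0.00106). Before stress it read 1.02, 0.77 and 0.58 against 0.52, 0.52 and 0.45, a difference of 0.30 ± 0.21 that did not pass. Ta.4760.1.S1_at (0.97) and Ta.9635.2.S1_a_at (0.95) were also higher in Y12-3 under stress, and all 3 passed under each of 21 alternatives. TaAffx.28944.1.S1_at (0.80) lost its call under 6 and Ta.14084.1.S1_x_at (0.93) under 13.

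Higher in stressed A24-39 were Ta.9635.1.A1_at (-0.78 for Y12-3 minus A24-39) and Ta.1577.1.S1_at (-0.72), each under all 21 alternatives. TaAffx.9452.1.S1_x_at (-0.77) lost its call under 5 of them. The LOC543293 members Ta.2704.1.S1_at (-0.77) and Ta.2704.1.S1_x_at (-0.69) lost theirs under 7 and 10. The LOC543293 probe set that is no member, TaAffx.46097.2.S1_at, was not called and lay the other way (0.57 ± 0.27, SE). The brightest member before stress on average, Ta.22817.2.S1_s_at, was also higher in A24-39, at 5.42 ± 0.17 against 4.74 ± 0.24 (SD, n = 3; limma adjusted p = 0.0226). Its well-watered means were 3.14 and 2.99.

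In both regimes 3 members were called, all 3 higher in A24-39, namely Ta.9635.1.A1_at, Ta.1577.1.S1_at and Ta.30253.1.A1_at. The last read 1.61, 1.56 and 1.53 against 1.91, 1.93 and 1.88 in watered and 2.73, 2.66 and 2.78 against 2.86, 3.09 and 3.12 in stressed roots of Y12-3 and A24-39. Both members of cluster Ta.9635 were called under stress, in opposite directions. Ta.9635.1.A1_at stood at 2.77 ± 0.20 in stressed Y12-3 and 3.56 ± 0.24 in stressed A24-39, and Ta.9635.2.S1_a_at at 2.88 ± 0.095 and 1.93 ± 0.35 (SD, n = 3). A sequence difference under the probes would also change the signal between genotypes, and its part in these differences was not tested.

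**Figure D5:**
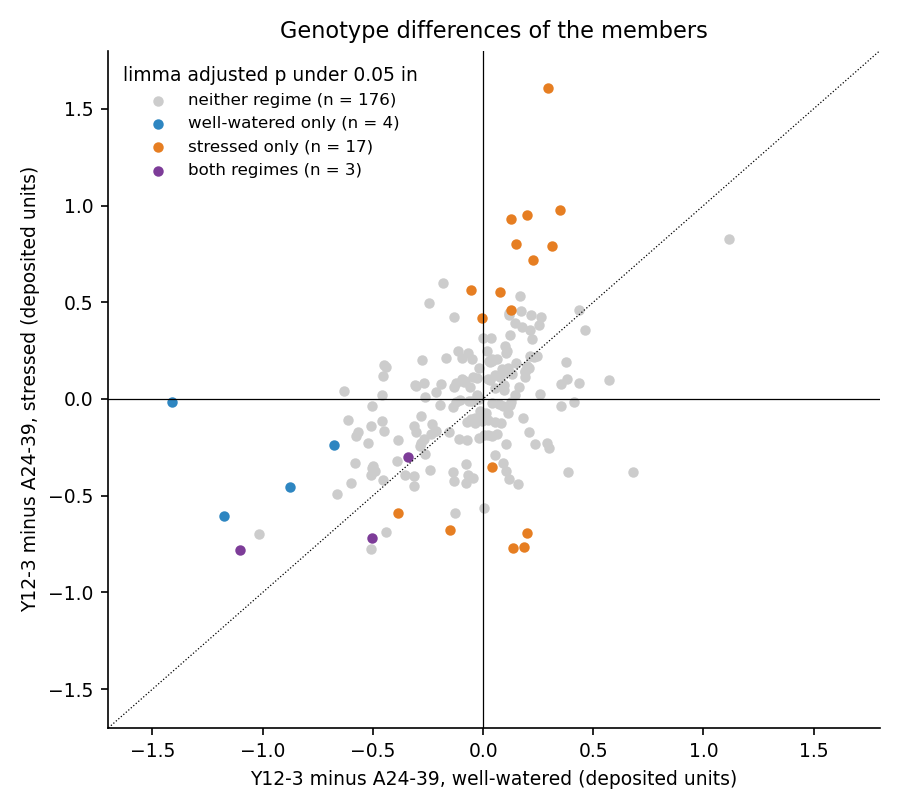
Y12-3 minus A24-39 in well-watered roots on the horizontal and in stressed roots on the vertical axis, in deposited units, for the 200 members. Colours mark members past a limma adjusted p of 0.05 in neither regime (176), in watered roots only (4), in stressed roots only (17) or in both (3). The watered calls all lie left of 0, and the stressed calls lie on both sides of 0, with Ta.18122.1.S1_at highest at 1.61.

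Some control signals moved with the stress. For dap, a transcript spiked into each sample, the 3′ probe set exceeded the 5′ one by 1.27 ± 0.27 in well-watered and 0.841 ± 0.032 in stressed Y12-3, and 1.21 ± 0.13 and 1.05 ± 0.06 in A24-39 (SD, n = 3). With it as a covariate limma called 11 of 200 members as different between genotypes in watered roots, against 6.59% of all probe sets. In stressed roots 11 members were called, against 4.74% of all. The part of the dap difference in the stress responses, with which it moved, was not tested. The mean over 63 spike-in probe sets was 1.25 ± 0.10 in well-watered and 1.15 ± 0.06 in stressed Y12-3, and 1.25 ± 0.02 and 1.24 ± 0.09 in A24-39 (SD, n = 3). With each array shifted to equal spike-in means, the median response of the members was 1.67 in Y12-3 and 1.44 in A24-39, and 191 of the 200 still met the rule.

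At the edge of the rise condition, the smaller response was 1.004 for Ta.12088.1.S1_at and 1.01 for Ta.2690.1.S1_at (LOC606323) and Ta.4941.1.S1_at. Just outside were Ta.23176.1.S1_at (LOC100125713), Ta.9099.1.S1_at and Ta.28254.1.S1_s_at, at 0.996, 0.991 and 0.991. At the edge of the level condition, the lower watered mean was 0.0054 for Ta.5834.1.A1_at, 0.0069 for Ta.7091.1.S1_at and 0.0099 for Ta.5852.1.A1_x_at. Just outside were Ta.27801.1.A1_at, Ta.5718.2.S1_a_at and Ta.8085.1.S1_at, at -0.00051, -0.0026 and -0.0089. The last of these rose by 4.21 and 4.44, so a probe set with a rise among the largest was kept out by its level alone.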

How the data were processed

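The deposited table holds a score for each probe set on each array. The submitters' processing notes name RMA, without a version, and no other tool. The deposited scores are log-like and were used unchanged. No source used here gives their base, centring or scaling. The 175 array controls (AFFX and RPTR) among 61290 probe sets were left out. The members and the gene lists were chosen with earlier results of these data known.

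Stress responses and watered levels chose the members and carry no test. The interaction and the genotype differences come from limma 3.58.1 (lmFit and eBayes, under R 4.3.3). The main fit was 1 fit of 4 group means over 12 arrays, with 8 residual degrees of freedom and Benjamini-Hochberg adjustment over 61115 probe sets. A check on simulated data drew independent noise for each probe set and array. It held no shared deviations of same-numbered arrays, so it does not cover them. Errors of differences are limma's SE. The number of arrays limits the precision. Tables and plots were made with Python 3.11.15.

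Whether replicate numbers pair the genotypes was checked on deviations from the group means. Between same-numbered arrays these correlated at 0.197 to 0.278 in watered and 0.170 to 0.575 in stressed roots, each over 0.1. Differently numbered arrays correlated at -0.189 to -0.017 in watered and -0.510 to 0.175 in stressed roots, the highest being the first stressed Y12-3 with the third stressed A24-39 array, above the 0.170 of the first with the first. By the limit of 0.1 the number was taken to pair the genotypes within a regime. That pairing entered only the fits with a block, and the main fit has none. Named members were those with a symbol (up to 12), the 10 with the highest mean response, the 3 brightest before stress, those past the interaction threshold, the 5 highest and 5 lowest genotype differences called per regime, those nearest the rule's limits, the 3 with the largest SD within a group, and the clusters with the most members. Members outside this rule were named after their values were seen.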

Additional observations from a re-analysis of the deposited data

How the results depend on the processing

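The number of members was 200 on all arrays and 177 to 215 with 1 array left out. It was 217 with the level threshold at the highest non-target control, 204 after quantile normalization, 208 after the spike-in shift and 191 on group medians, of which 174 were members. A rise threshold of 1.5 left 69, and one of 0.75 gave 351. The median response stayed between 1.48 and 1.70 in Y12-3 and between 1.33 and 1.504 in A24-39 with 1 array left out or either rescaling. For the interaction, 0 members were called, against 0.0851% of all probe sets. With 1 array left out it was 0 to 0, against 0.0376% to 1.02% of all. After the spike-in shift it was 1 (Ta.18122.1.S1_at), against 0.191%, and with array weights 1 (Ta.951.2.A1_a_at), against 1.42%. With the replicate number as a single block it was 0, against 0.0704%, and with the replicate block within each regime 5, against 0.25%. Genotype calls in watered roots numbered 7, against 5.29% of all probe sets. With 1 array left out they numbered 3 to 9, against 3.13% to 5.87% of all. They numbered 10 with the single replicate block (5.53% of all), 37 with the replicate block within each regime (6.47%) and 11 with the dap covariate (6.59%). In stressed roots they numbered 20, against 8.47% of all. With 1 array left out they numbered 6 to 28, against 4.89% to 12.1% of all. They numbered 24 with the single replicate block (8.65% of all) and 47 with the replicate block within each regime (8.74%). With array weights they numbered 42, against 20.1% of all, and with the dap covariate 11, against 4.74%. The causes of these shifts were not tested. None of the 15 called genotype differences that were followed one by one turned its sign under these alternatives. Some of the alternatives, such as leaving out an array of the other regime, cannot change the difference itself. Other differences were not followed. Values close to the non-target controls limit what can be read from the lowest watered levels.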

Other observations

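The members shared a pattern across replicate numbers that the rule did not ask for. In stressed roots the second array was the lowest of 3 in both genotypes for 111 of 200 members (55.5%), against 18.4% of all probe sets and 15.8% of those that met the level condition. The third stressed array was the highest in both genotypes for 85 members (42.5%), against 14.9% of all and 18.1% of those that met the level condition. In watered roots the third array was the lowest in both genotypes for 83 members (41.5%), against 11.2% of all and 20.1% of those that met the level condition. The arrays with the number 3 thus held the lowest watered values of many members and the highest stressed values of many. How many members showed both was not counted. Ta.6111.1.S1_at was an extreme case, with 1.796, 1.59 and 0.46 on watered Y12-3 arrays and 1.65, 1.38 and 0.12 on those of A24-39. Ta.13337.2.S1_at went the other way, with 0.86, 1.33 and 2.46 and with 0.96, 1.11 and 1.78. What the replicate number stands for is not given in the sources used here.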
